A study of Danio rerio with 2 samples.

Results

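The genes *sp7*, *runx2a*, *runx2b*, *spp1*, *entpd5a*, *panx3*, *ifitm5*, *col10a1a* and *bglap* follow bone formation, from the commitment of osteoblasts to the deposit of mineralized matrix. They were chosen by symbol, and all 9 were found among the 37423 genes listed for each library, of which 27719 had a molecule in the cells kept. Each was described by its raw counts of unique molecular identifiers (UMIs, 1 per captured mRNA molecule), by cell type and by which of the other genes were found in the same cell.

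The cells came from dissociated heads of zebrafish larvae at 3 days post fertilization, cut at the level of the pectoral fin, and viable cells were taken by flow sorting. *polr3a* encodes the largest subunit of RNA polymerase III, the enzyme that transcribes tRNA and other small RNA genes, and sa907 is a chemically induced nonsense allele of it. One library was made from 10 pooled wild-type heads (+/+) and another from 10 pooled *polr3a* sa907/sa907 heads, both from a cross of heterozygous parents of which 1 carried Tg(fli1a:egfp) and the other Tg(sox10:mRFP). With 1 library of each genotype, neither animals nor libraries were replicated. No test between genotypes was possible, and every interval below is an exact 95% interval that covers counting error only, while PCR and sampling of the pools add more. Where a count was 0, the limit given is that of 3 counts of the total.

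Osteoblasts arise from mesenchyme under Runx2, and Sp7 (Osterix) acts downstream of it to drive maturation. Maturing osteoblasts secrete a collagen matrix and raise local phosphate so that mineral forms. In the teleost head, early osteoblasts also make type X collagen, which in mammals is known mainly from hypertrophic cartilage. Zebrafish carry *runx2a* and *runx2b* as duplicates of the single mammalian gene.

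The libraries labelled mutant and wild-type held 24338 and 34036 cells after filtering, with medians of 3924 and 3327 UMIs and 1845 and 1624 genes per cell. The targeted gene, *polr3a*, was not lower in the library labelled mutant, at 16.4 CPM (counts per 1000000 UMIs of the library; 1913 UMIs) against 13.8 CPM (1967 UMIs) in the other, a log2 ratio of 0.25 (0.16 to 0.34). The study measured lower *polr3a* mRNA in mutants by qRT-PCR and predicts some decay, so the *polr3a* value goes against the label. Other values go with the label. Before filtering, the libraries labelled mutant and wild-type held 32228 and 43611 barcodes. The study gives the same cell numbers for its mutant and control samples. Over all cells the log2 ratio was 1.87 for *cdkn1a*, 1.07 for *chac1* and 0.80 for *atf4b*. By qRT-PCR the study found these genes raised in mutants. Groups are called by their labels throughout, and each direction below is between libraries as labelled. The kept cells shared 244 cell barcodes between the libraries, 1.003% of those labelled mutant and 0.717% of those labelled wild-type.

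Over all cells the regulators of the lineage were higher in the library labelled mutant, while the matrix and phosphate genes were spread from no difference to higher, and *bglap* was at its limit of detection. The level of *sp7*, the zinc finger factor of osteoblast maturation, was 6.88 CPM (6.42 to 7.38) from 803 UMIs in cells labelled mutant, against 5.05 CPM (4.69 to 5.43) from 719 UMIs in cells labelled wild-type. The log2 ratio was 0.45 (0.30 to 0.59). *runx2a* was at 23.4 CPM from 2727 UMIs and 18.3 CPM from 2611 UMIs, a log2 ratio of 0.35 (0.27 to 0.43). For its paralog *runx2b* the levels were 22.1 CPM from 2583 UMIs and 14.8 CPM from 2110 UMIs, a log2 ratio of 0.58 (0.50 to 0.66). All 3 transcription factor genes thus had intervals above 0. The shares of cells in marker gates also differed, with 0.703% and 0.479% of cells in the osteoblast gate described below, 3.97% and 3.08% in the chondrocyte gate and 26.6% and 31.8% in the neuron gate. Entry to the gates was not set to equal depth. The part of these shares in the pooled ratios was not tested, and levels within gates follow below.

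Among the genes that act on phosphate and mineral, *entpd5a*, whose ectoenzyme is needed for mineralization of the zebrafish skeleton, was at 8.52 CPM in both libraries (994 and 1213 UMIs), with a log2 ratio of 0.00 (-0.12 to 0.12). *spp1*, which encodes osteopontin, an acidic phosphoprotein of bone matrix, was at 2.63 and 2.58 CPM (307 and 367 UMIs), a log2 ratio of 0.03 (-0.19 to 0.25). *panx3*, a pannexin channel gene known in mammals from osteoblasts and hypertrophic chondrocytes, was at 10.8 and 9.34 CPM (1258 and 1330 UMIs), a log2 ratio of 0.21 (0.09 to 0.32). The intervals of *entpd5a* and *spp1* spanned 0 and that of *panx3* lay above it.

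*ifitm5*, which encodes the osteoblast membrane protein BRIL in mammals, was at 46.5 CPM (5427 UMIs) in cells labelled mutant, against 32.8 CPM (4672 UMIs) in those labelled wild-type. The log2 ratio was 0.50 (0.45 to 0.56). *col10a1a*, a type X collagen chain, was at 159 and 137 CPM (18507 and 19485 UMIs), a log2 ratio of 0.21 (0.18 to 0.24). This value moved by more than its interval with the processing, from 0.046 with a further 10% of cells left out as doublets to 0.49 for the mean of per-cell CPM. *bglap*, the osteocalcin gene of mature bone, had 17 UMIs in 17 cells against 42 UMIs in 31 cells, which is 0.146 against 0.295 CPM, and its log2 ratio was -1.02 (-1.92 to -0.17). It was the 1 gene of the 9 with an interval below 0, and with no doublets left out its log2 ratio was -0.30, no longer below a CPM ratio of 0.8.

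**Figure D1:**
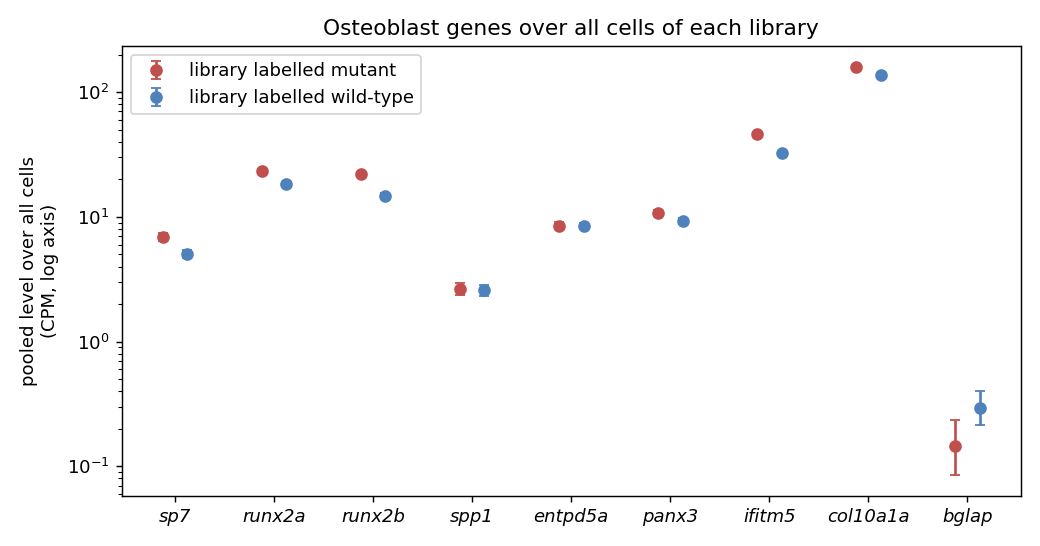
Pooled level of each gene over all kept cells of each library, in CPM on a log axis, with exact 95% Poisson intervals. Points of *sp7*, *runx2a*, *runx2b* and *ifitm5* labelled mutant sit above those labelled wild-type (*ifitm5* 46.5 against 32.8 CPM), *entpd5a* is level at 8.52 CPM, and *bglap* is below 1 CPM in both.

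The study used fold limits of 1.2 and 0.8. Of the 11792 genes that averaged 10 CPM or more, 14.1% had a CPM ratio above 1.2 and 3.29% had one below 0.8. Of the 9 genes, 5 reached 10 CPM (*runx2a*, *runx2b*, *panx3*, *ifitm5* and *col10a1a*), and of these 3 were above 1.2 (*runx2a*, *runx2b* and *ifitm5*) and 0 below 0.8. Below that level, *sp7* was above 1.2 and *bglap* below 0.8. The median log2 ratio was 0.21 over the 9 genes and 0.35 over the 5, beside 0.06 over all genes tested, whose 5th to 95th percentiles ran from -0.25 to 0.44. The pooled ratios of *runx2b* and *ifitm5* lay beyond the 95th percentile. In alternatives *runx2b* was 0.37 with no cell filter. *ifitm5* was 0.34 with a further 10% left out as doublets and 0.40 with the study's cell numbers. The percentiles were computed for the main setting only. *sp7* was not among the genes tested, and its interval of 0.30 to 0.59 spanned that percentile.

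Few cells carried most of the matrix transcripts. *col10a1a* was found in 275 and 319 cells, of which 210 and 263 held 1 UMI and 33 and 30 held at least 100. The highest cells held 1383 and 1441 UMIs, and the 10 highest cells held 54.6% and 58.0% of all *col10a1a* UMIs. *ifitm5* was found in 117 and 177 cells with a highest count of 479 and 485, and its 10 highest cells held 58.0% and 52.8% of its UMIs. By contrast *runx2a* was spread over 1201 and 1218 cells and *runx2b* over 969 and 1024, and the 10 highest cells held 13.4% and 10.1% of the *runx2a* UMIs and 8.01% and 6.54% of those of *runx2b*. For *runx2a* 1 cell labelled mutant held 136 UMIs, against a highest count of 34 in the library labelled wild-type.

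*sp7* lay between, in 461 and 496 cells (1.89% and 1.46%), with 357 and 409 of them at 1 UMI and a highest count of 16 and 15. With each cell thinned to 1000 UMIs, which left out 1683 and 2633 shallower cells, 0.503% (0.415 to 0.604) and 0.494% (0.419 to 0.577) of cells held *sp7*. The difference in share was therefore not detectable at equal depth. *spp1* was in 76 and 75 cells, *entpd5a* in 132 and 149, and *panx3* in 253 and 252.

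Cells were then grouped by marker genes that include none of the 9. A cell entered a gate when at least 2 of up to 6 markers were found and summed to at least 3 UMIs. Cells that met several non-skeletal gates, or a skeletal and another gate, were set aside as mixed. Cells that met several skeletal gates went to the first of chondrocyte, osteoblast, tendon and cranial mesenchyme. The osteoblast gate could thus hold cells with tendon markers, whereas no cell of the tendon gate met the osteoblast gate. The osteoblast gate (5 of 6 markers matched by symbol, *phex*, *smpd3*, *alpl* and *col10a1b* among them) held 171 and 163 cells with medians of 5290 and 4636 UMIs. It is a range cut from a score rather than a type. Of all cells that met it before the mixed cells were set aside (490 and 464), 121 and 149 sat at the lowest score that passes, and a further 184 and 246 cells fell just short.

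The share of cells with *sp7* was 31.0% (24.2 to 38.5) in the osteoblast gate labelled mutant and 26.4% (19.8 to 33.8) in that labelled wild-type. Thinned to 1000 UMIs the shares were 14.8% and 15.5%. The pooled level was 254 CPM (223 to 287) and 187 CPM (159 to 219). The tendon gate followed at 16.8 CPM (13.5 to 20.7) and 13.6 CPM (10.7 to 17.2), then cranial mesenchyme at 8.17 CPM (6.19 to 10.6) and 8.95 CPM (6.90 to 11.4) and chondrocytes at 4.24 CPM (2.72 to 6.31) and 5.99 CPM (4.01 to 8.60). The intervals of tendon and mesenchyme overlapped in cells labelled wild-type, as did those of mesenchyme and chondrocytes in both libraries, while the osteoblast gate lay clear of the other skeletal gates and tendon lay clear of chondrocytes in both libraries. Vascular endothelium labelled wild-type was at 15.1 CPM (6.54 to 29.8), which overlapped tendon. The part of the gate order in the differences between skeletal gates was not tested.

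Free RNA in droplets gives some UMIs to cells that do not express a gene. In photoreceptors (697 and 788 cells, medians of 3133 and 2561.5 UMIs) *sp7* was found in 0 cells, which allows a share of up to 0.430% and 0.381%, and in neurons (6466 and 10819 cells, medians of 3447 and 3123 UMIs) in 0.727% and 0.518%. *sp7* in chondrocytes, at 2.07% and 2.48% (medians of 5436.5 and 4281 UMIs), fell to 0.732% and 0.486% of thinned cells, beside 0.198% and 0.209% of thinned neurons. *sp7* in the tendon gate, at 6.22% and 4.13%, fell to 1.96% and 1.16% of thinned cells.

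The matrix genes had their highest shares and levels in the osteoblast gate. *col10a1a* was in 20.5% and 20.9% of osteoblast-gated cells and its pooled level was 12101 and 20258 CPM, whereas in chondrocytes it was in 0.518% and 0.573%, no more than the 0.717% and 1.02% of photoreceptors or the 0.804% and 0.767% of neurons. A share of that size is read as background. The chondrocytes held 8 UMIs in 5 cells and 21 UMIs in 6 cells, against 5 in 5 and 8 in 8 photoreceptors. *ifitm5* behaved alike, in 21.1% and 19.6% of osteoblast-gated cells against 0.518% and 0.191% of chondrocytes and 0.430% and 0.381% of photoreceptors. *panx3* was in 24.6% and 23.3% of the osteoblast gate and in 2.07% and 1.43% of chondrocytes, against 0.143% and 0.127% of photoreceptors and 0.619% and 0.610% of neurons. *spp1* was in 14.04% and 17.2% of the osteoblast gate, in 0.932% and 0.478% of chondrocytes and in 0 photoreceptors, which allows up to 0.430% and 0.381%. In vascular endothelium *spp1* had 1 and 28 UMIs, the latter in 3 of 126 cells. Pooled levels in the osteoblast gate were 3531 CPM (3415 to 3651) and 4345 CPM (4207 to 4487) for *ifitm5*. For *panx3* they were 684 CPM (633 to 738) and 1029 CPM (963 to 1099). For *spp1* they were 133 CPM (111 to 158) and 200 CPM (171 to 232). All were thus lower in the gate labelled mutant, while in mixed cells they were higher (54.1 and 20.7, 11.4 and 6.47, and 3.39 and 1.89 CPM). The gate held 63.9% and 89.4% of all *col10a1a* UMIs and the mixed cells 34.95% and 9.35%, so its levels also depend on which cells were set aside.

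*runx2a* and *runx2b* were found across the skeletal gates and in some others rather than in osteoblasts alone. *runx2a* was in 35.1% and 31.9% of osteoblast-gated cells, 20.1% and 15.6% of chondrocytes, 15.4% and 13.3% of the tendon gate and 8.42% and 6.47% of cranial mesenchyme, beside 1.004% and 1.14% of photoreceptors. Thinned, the shares in the osteoblast gate were 15.4% and 14.3% and those in chondrocytes 6.17% and 5.54%. *runx2b* was in 30.4% and 35.6% of osteoblast-gated cells, 21.9% and 18.7% of chondrocytes and 11.7% and 10.8% of the tendon gate. In the basal epidermis gate *runx2a* was in 12 of 98 and 12 of 84 cells (12.2% and 14.3%), at 47.3 CPM (30.9 to 69.3) and 85.5 CPM (59.5 to 119). Thinned, *runx2a* was in 3 of 90 and 4 of 80 of these cells. *runx2b* was in 6 and 7 basal epidermis cells and in 7 of 88 and 7 of 113 pericytes, where its level was 27.5 CPM (13.7 to 49.2) and 46.0 CPM (29.1 to 68.96). Within gates the *runx2a* level was 292 and 263 CPM in osteoblasts, 63.8 and 63.4 CPM in chondrocytes, 73.2 and 83.4 CPM in the tendon gate and 41.4 and 35.4 CPM in cranial mesenchyme, and the intervals of the libraries overlapped in each. The *runx2b* level was 229 and 204 CPM in osteoblasts, 104 and 94.2 CPM in chondrocytes and 79.9 and 67.6 CPM in the tendon gate. The intervals of the libraries overlapped in each of these gates. In cranial mesenchyme *runx2b* was at 38.6 CPM (34.1 to 43.5) and 29.2 CPM (25.4 to 33.5), which did not overlap. Nor did the intervals of mixed cells (15.6 and 9.90 CPM) or of cells in no gate (20.5 and 12.9 CPM). The *runx2b* intervals were apart in pigment cells too, at 17.7 CPM (12.3 to 24.6) and 4.44 CPM (2.03 to 8.43). For *runx2a* they were also apart in mixed cells (18.1 and 12.1 CPM) and in cells in no gate (30.2 and 21.1 CPM). Of the 434 *runx2a* UMIs in no gate labelled mutant, 1 cell held 136. The *runx2a* intervals were apart in photoreceptors as well (10.2 and 3.38 CPM) and, in the other direction, in radial glia (4.22 and 8.93 CPM). These levels also rested on few cells. In photoreceptors labelled mutant 1 cell held 17 of the 30 *runx2a* UMIs. In radial glia labelled wild-type 3 cells held 48 of the 106.

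**Figure D2:**
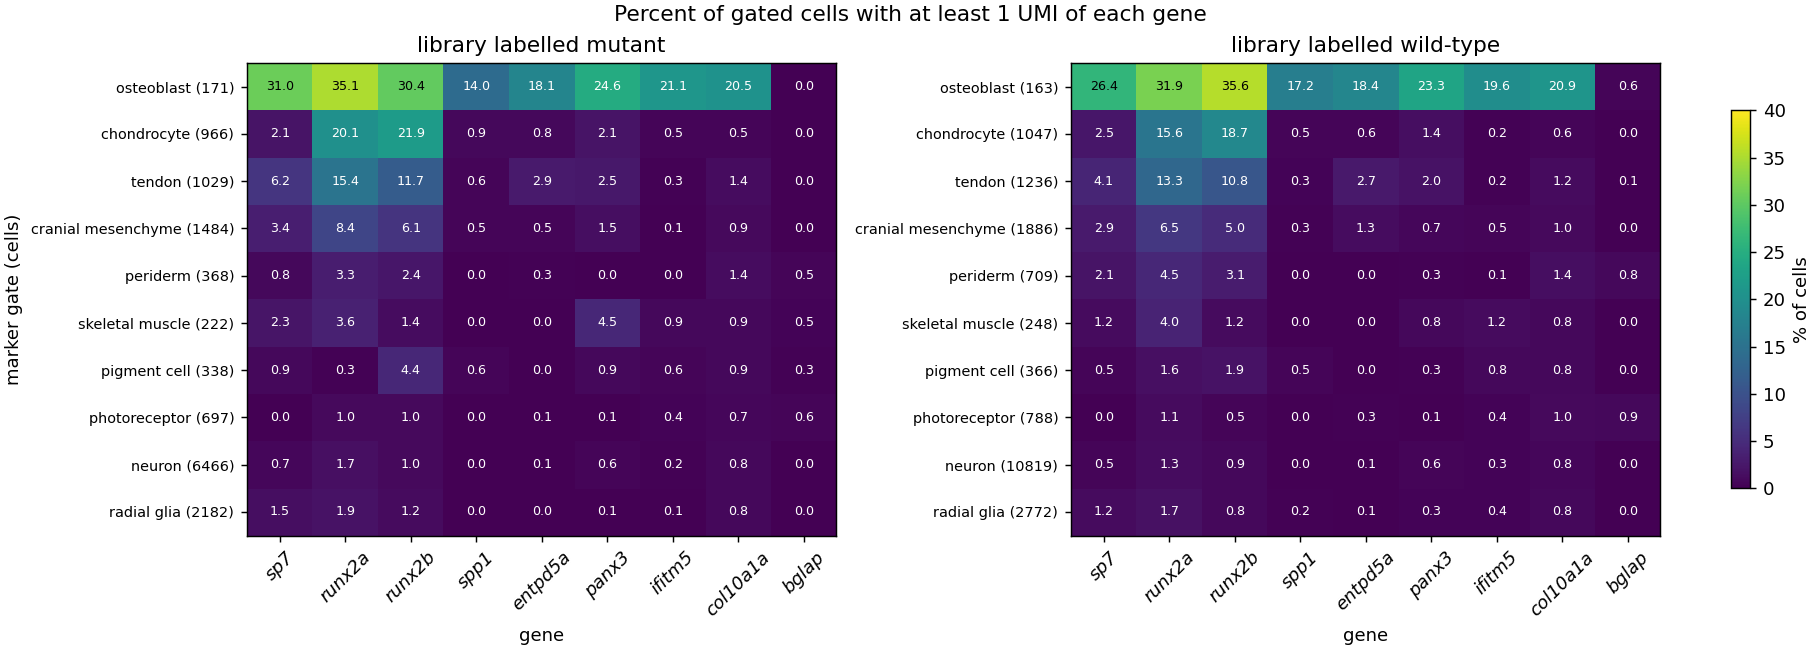
Percent of cells in each marker gate with at least 1 UMI of each gene, for both libraries, with the number of cells in parentheses. Of the 10 gates drawn, the top row, the osteoblast gate, holds the highest share of every gene but *bglap*, and *runx2a* and *runx2b* also reach 20.1% and 21.9% of chondrocytes labelled mutant.

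*entpd5a* was also found outside the osteoblast gate. It was in 18.1% and 18.4% of osteoblast-gated cells, and in 2.92% and 2.67% of the tendon gate, beside 0.143% and 0.254% of photoreceptors. Thinned, the tendon shares were 1.96% and 1.24%. The pooled *entpd5a* level in the osteoblast gate was 419 CPM (380 to 462) and 864 CPM (803 to 929), lower in the gate labelled mutant. In mixed cells it was higher in those labelled mutant, with intervals of 8.70 to 10.8 and 3.87 to 5.21 CPM. The gate held 41.2% and 61.3% of all *entpd5a* UMIs and the mixed cells 34.3% and 14.9%. The gate levels of *entpd5a* thus also depend on which cells were set aside. Of the *entpd5a* cells with fewer than 4 of the 9 genes (90 and 113), 29 and 33 were tendon-gated and held 131 and 146 UMIs, up to 20 and 19 in a cell. *sp7* was found in 1 and 0 of these tendon-gated cells and *col10a1a* in 1 and 1. A further 8 and 25 were in cranial mesenchyme, with 13 and 55 UMIs. These cells were singled out after their values were seen.

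Most cells with any of the 9 genes held 1 of them (2278 of 2734 cells labelled mutant and 2646 of 3053 labelled wild-type). The number fell to 117 and 107 cells with at least 3 and then levelled off, with 61 and 59 cells at 4 or more and 43 and 33 at 6 or more. As a share of all cells, at least 3 genes were found in 0.481% (0.398 to 0.576) and 0.314% (0.258 to 0.380), and at equal depth of 1000 UMIs in 0.243% (0.183 to 0.316) and 0.153% (0.113 to 0.203). At least 4 were found in 0.251% (0.192 to 0.322) and 0.173% (0.132 to 0.224). Thinned, the latter shares were 0.177% (0.126 to 0.240) and 0.118% (0.0830 to 0.162). The intervals of the libraries overlapped for 4 or more genes and in both thinned comparisons.

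The cells with at least 4 of the 9 genes, a set defined after the values were seen, held 98.6% and 98.5% of all *col10a1a* UMIs and 98.8% and 97.1% of those of *ifitm5*. They held 80.6% and 82.0% of *panx3*, 67.6% and 72.1% of *entpd5a* and 77.9% and 55.6% of *spp1* UMIs. For *sp7* the shares were 38.9% and 29.5%, for *runx2a* 7.96% and 7.28%, and for *runx2b* 4.49% and 5.36%. Since the cells were chosen by these same genes, the shares are a description and no test.

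Markers that took no part in the choice of these cells were then read in them. *phex*, the endopeptidase gene of phosphate balance, was found in 56 of 61 and 47 of 59 of them, against 1.24% and 1.18% of all other cells. *smpd3*, a sphingomyelinase gene needed for bone mineralization in mammals, was in 54 and 46, against 11.2% and 10.1% of other cells. *alpl*, the phosphatase gene, was in 10 and 6 of them (16.4% and 10.2%), beside 10.96% and 8.56% of other cells. *col10a1b* was in 7 and 7, against 0.045% and 0.038% of other cells. The chosen cells had medians of 6441 and 5972 UMIs, against 3924 and 3327 over all cells, and these shares were not set to equal depth. By gate, 39 and 36 were osteoblast-gated, 1 and 4 tendon-gated and 18 and 16 mixed. Tendon markers were also found, since 30 and 39 cells met the tendon gate, and the summed level of its 6 markers was 868 and 1041 CPM against 251 and 220 CPM in other cells. Chondrocyte markers were at 63.6 and 51.3 CPM against 916 and 666 CPM in other cells, and photoreceptor markers at 84.0 and 688 CPM against 1042 and 953 CPM. The part of these other markers in the results was not tested.

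**Figure D3:**
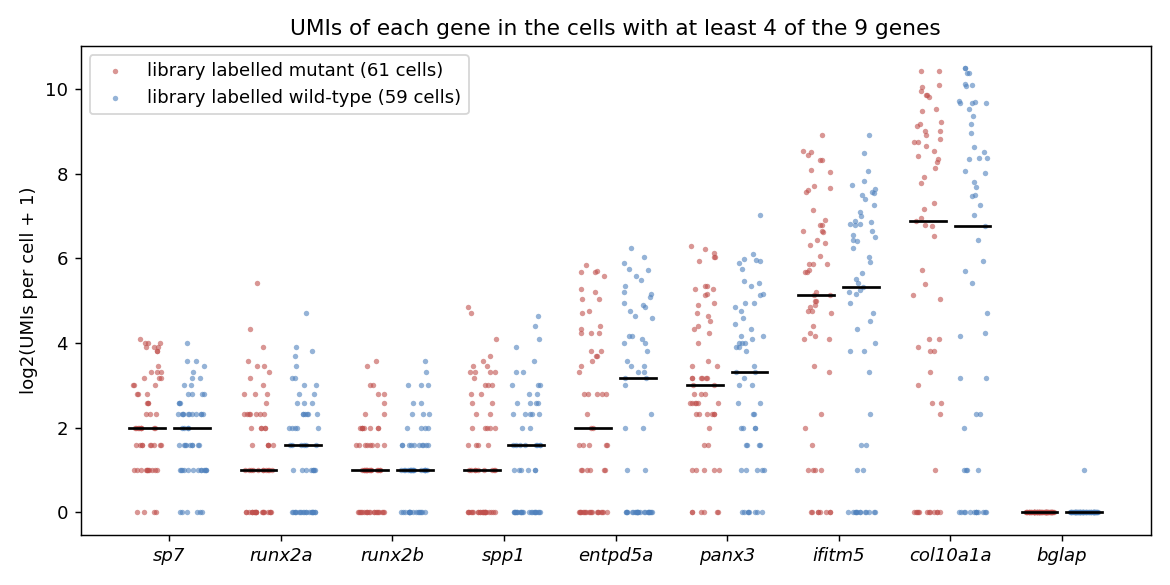
UMIs of each gene, as log2(UMIs + 1), in every cell with at least 4 of the 9 genes (61 labelled mutant and 59 labelled wild-type), with black bars at the medians. *col10a1a* runs from 0 to 1383 and 1441 UMIs, *sp7* reaches 16 and 15, and *bglap* is at 0 in every cell but 1.

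Within these cells the genes differed widely in range. *sp7* was in 57 and 53 cells, with a median of 3 and 4 UMIs where found. *col10a1a* was in 49 and 46, from 1 UMI to 1383 and 1441, with medians of 281 and 240 where found. Over all of these cells, those without *col10a1a* included, the share of the cell's own transcripts it took had a median of 2.26% and 2.76%. The highest shares were 15.6% and 17.3%. *ifitm5* was in 53 and 46 cells with medians of 52 and 79.5 UMIs, *panx3* in 55 and 51 with medians of 8 and 14, and *entpd5a* in 42 and 36 with medians of 10.5 and 17. *spp1* was in 39 and 37 cells, *runx2a* in 41 and 39, and *runx2b* in 41 and 42. *bglap* was in 0 and 1.

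Pairs of genes were found together at unequal rates. Of the *sp7* cells, 164 of 461 (35.6%, 31.2 to 40.1) and 157 of 496 (31.7%, 27.6 to 35.9) held another of the 9 genes, against 9.52% and 7.62% of the cells without *sp7*. Its most frequent partners were *runx2b* (107 and 106 cells) and *runx2a* (99 and 94). Of *spp1* cells 72.4% and 61.3% held another of the genes, of *ifitm5* cells 52.1% and 35.03%, and of *col10a1a* cells 28.4% and 23.8%. When thinned, the *ifitm5* shares were 76.9% and 56.6%. *bglap* cells held another gene in 0 of 17 and 3 of 31 cases. Apart from the thinned values, these shares were not set to equal depth.

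**Figure D4:**
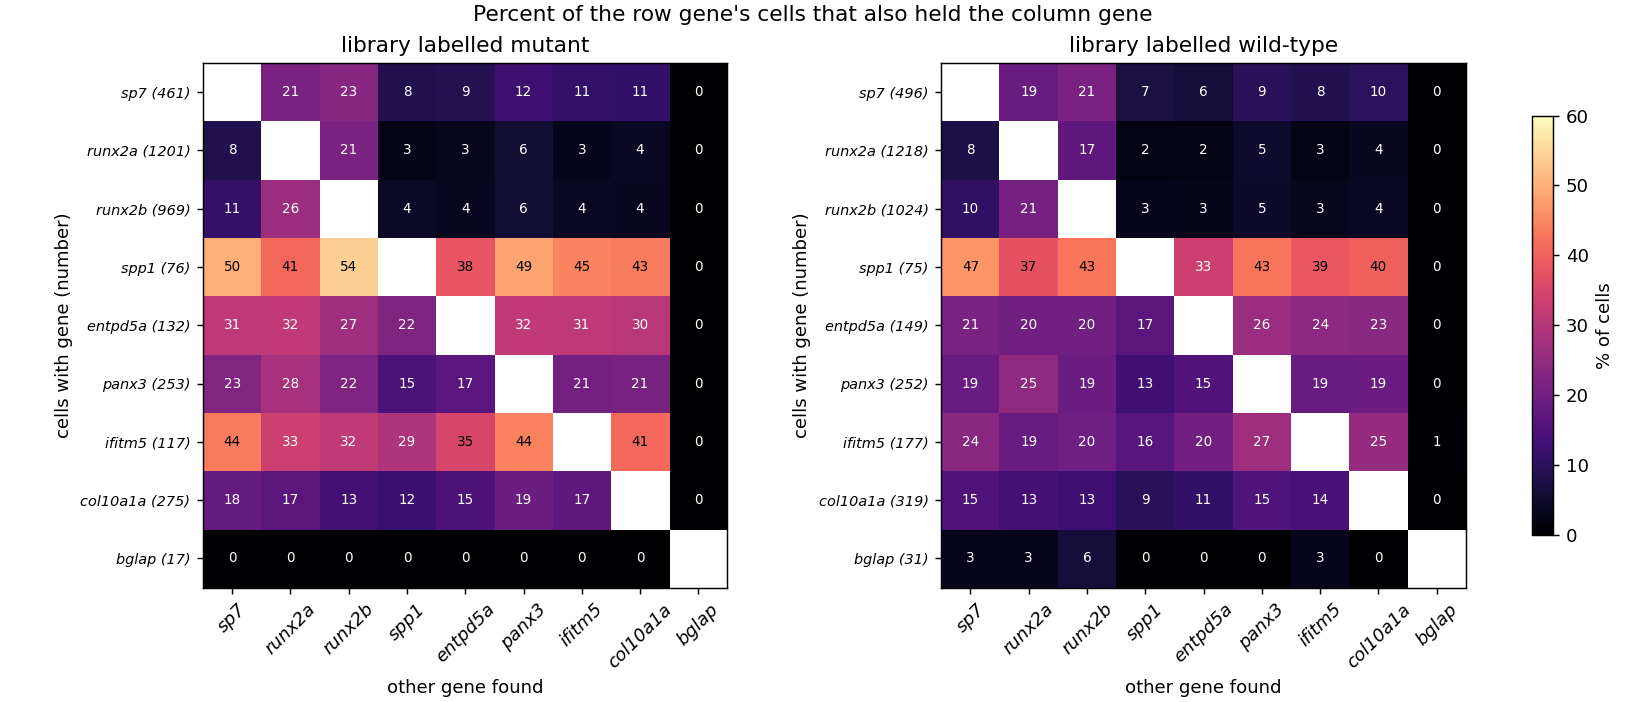
Percent of the cells with the row gene in which the column gene was also found, for both libraries, with the number of cells with the row gene in parentheses. Rows of *spp1* and, labelled mutant, *ifitm5* are bright (*spp1* with *sp7* in 38 of 76 cells labelled mutant), rows of *runx2a* and *runx2b* are dark apart from each other, and *bglap* stands alone.

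Most cells with a *runx2* gene held 1 of the paralogs, yet each was found more often beside the other than in the remaining cells. *runx2b* was in 21.3% and 17.4% of *runx2a* cells and in 3.08% and 2.47% of cells without *runx2a*. *runx2a* alone was in 945 and 1006 cells, *runx2b* alone in 713 and 812, and both in 256 and 212. In the osteoblast gate 32 and 32 cells held both, 28 and 20 *runx2a* alone and 20 and 26 *runx2b* alone. At this depth a gene not found in a cell may still be transcribed in it. Of cells with either paralog 7.58% and 7.24% held *sp7*, against 1.41% and 1.09% of cells with neither. In the osteoblast gate *sp7* was in 38 of 80 and 40 of 78 cells with a *runx2* gene, and in 16.5% and 3.53% of those without. Cells with at least 10 *runx2a* UMIs, a class set after the values were seen, numbered 34 and 34, held 23.8% and 22.2% of its UMIs and were divided over 8 and 10 gates, the unassigned and mixed cells included, with 8 and 5 in the osteoblast gate.

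To compare levels in cells chosen without the gene measured, each gene was read in cells with at least 2 of the other genes. Such a set is not one of osteoblasts alone. Except for the *runx2* genes themselves, it includes every cell with both *runx2* paralogs (256 and 212). Of those, 65 and 34 were in the chondrocyte gate and 32 and 32 in the osteoblast gate. There the point values of the matrix and mineral genes were below 0, and the interval of *spp1* spanned it. *entpd5a* was at 252 CPM in 436 cells labelled mutant and 427 CPM in 393 cells labelled wild-type, for a log2 ratio of -0.76 (-0.90 to -0.61). *col10a1a* was at 6729 CPM in 431 cells and 9369 CPM in 385 cells, a log2 ratio of -0.48 (-0.51 to -0.45), and *panx3* at 399 and 555 CPM, a log2 ratio of -0.47 (-0.60 to -0.35). *ifitm5* had a log2 ratio of -0.18 (-0.24 to -0.12) and *spp1* one of -0.16 (-0.43 to 0.11).

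Few cells of each set held the gene measured. *col10a1a* was found in 53 of the 431 and 54 of the 385 cells, and *entpd5a* in 47 of the 436 and 41 of the 393. The *col10a1a* UMIs numbered 18263 and 19194, of totals of 2714269 and 2048765 UMIs in these sets of cells. The sets were not matched for depth, and the part of their totals in the ratios was not tested. Nor were these ratios computed without the cell filter, outside which 20.2% and 1.93% of *col10a1a* UMIs lay. In cells with at least 3 of the other genes the log2 ratio was -0.58 (-0.73 to -0.43) for *entpd5a*, -0.36 (-0.39 to -0.33) for *col10a1a* and -0.23 (-0.35 to -0.10) for *panx3*, whereas that of *ifitm5* was 0.07 (0.01 to 0.13) and that of *spp1* 0.04 (-0.23 to 0.32). Over 1578 genes with at least 100 CPM in cells with at least 3 of the 9 genes, the median log2 ratio was 0.02 and the 5th to 95th percentiles ran from -0.52 to 0.77. With at least 3 other genes, the point ratio of *entpd5a* (found in 42 and 36 cells) lay below that range, but its interval reached into it. Those of *col10a1a* and *panx3* lay within the range, which was drawn from a set of cells defined otherwise.

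For the regulators, *sp7* was at 161 and 149 CPM in cells with at least 2 of the other genes, a log2 ratio of 0.11 (-0.11 to 0.35), and at 628 and 473 CPM in those with at least 3, a log2 ratio of 0.41 (0.15 to 0.67). *runx2a* had a log2 ratio of -0.52 (-0.72 to -0.33) with at least 2 other genes and 0.10 (-0.19 to 0.39) with at least 3, where leaving out the highest cell of each library gave -0.0086. *runx2b* had 0.35 (0.12 to 0.58) and -0.01 (-0.40 to 0.37). The *runx2a* ratio thus went in opposite directions over all cells (0.35, 0.27 to 0.43) and in cells with at least 2 other genes. With at least 3 other genes the intervals of both *runx2* genes spanned 0, so neither had a direction there.

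**Figure D5:**
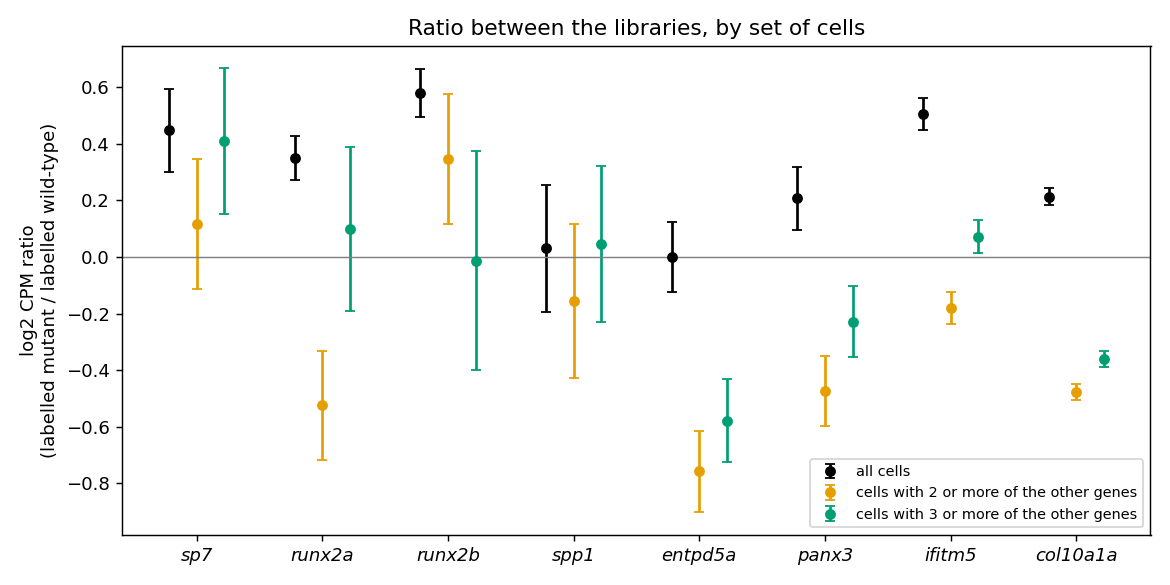
Log2 ratio of CPM, library labelled mutant over library labelled wild-type, with exact 95% intervals for counting error, over all cells (black), cells with at least 2 (orange) and at least 3 (green) of the other genes. *entpd5a* moves from 0.00 over all cells to -0.76 and -0.58, and *col10a1a* from 0.21 to -0.48 and -0.36. *runx2a* is above 0 over all cells and below 0 in orange, and the green intervals of both *runx2* genes span 0.

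Other genes of bone formation were read from lists, all over all cells. The counts below stand beside 14.1% of all genes tested above 1.2 and 3.29% below 0.8. Of 7 transcription partners with at least 10 CPM, 3 were above 1.2 and 0 below 0.8 (median log2 ratio 0.14, beside 0.06 for all genes). Among those farthest from 0 were *sox9a*, the cartilage factor gene (0.62), and *cbfb*, the partner of Runx proteins (0.38). Of 9 mineralization genes 4 were above and 0 below (median 0.19), with *enpp1*, which makes the mineral inhibitor pyrophosphate, at 0.35, *alpl* at 0.31 and *fam20cb* at 0.29. *phex*, found in most of the cells with at least 4 of the 9 genes, was at 0.01.

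Of 9 bone matrix genes 6 were above and 0 below (median 0.29). *serpinh1b*, which encodes the collagen chaperone Hsp47, was at 823 and 315 CPM, a log2 ratio of 1.38, followed by *postnb* at 0.44 and *sparc*, the osteonectin gene, at 0.35. In the cells with at least 4 of the 9 genes, *serpinh1b* was at 2440 and 2142 CPM. Of 10 collagen secretion genes 7 were above and 0 below (median 0.35), led by *plod2*, a lysyl hydroxylase gene, at 0.53, *creb3l1* at 0.48 and *creb3l2* at 0.45. Of 9 hedgehog, BMP and Wnt genes 4 were above and 0 below (median 0.23), with *bmp2b* at 0.57, the parathyroid hormone receptor gene *pth1ra* at 0.38 and *smo* at 0.33. In the osteoclast list both genes that reached 10 CPM were above 1.2, *ctsk* at 0.39 and *tnfrsf11a*, the RANK gene, at 0.36. *tnfrsf11a* was also found in 44 of 61 and 37 of 59 of the cells with at least 4 of the 9 genes, and *ctsk* in 21 and 22. The listed genes *acp5a*, *acp5b* and *ocstamp* were under 10 CPM and in 0 of those cells. Also under 10 CPM, *mmp9* was in 6 and 7 of those cells (9.84% and 11.9%), against 0.350% and 0.265% of other cells. *tnfsf11*, likewise under 10 CPM, was in 1 and 1. No osteoclasts were gated, so these values describe the list only.

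The genes whose cells most overlapped those of each gene were measured by the phi coefficient of detection over all 24338 and 34036 cells, of which the lower of the libraries is given as a description. For *sp7* these were *sgms2*, *bmp8a* and *tmem119a*, each at 0.16. *tmem119a* and *bmp8a* also led for *ifitm5* (0.29 and 0.28), *entpd5a* (0.25 and 0.24), *panx3* (0.24 and 0.23) and *col10a1a* (0.20 and 0.19). The third was *sgms2*, a sphingomyelin synthase gene, for *entpd5a* (0.19) and *panx3* (0.22), *phospho1*, a phosphatase gene of skeletal mineralization, for *ifitm5* (0.21) and *si:ch211-106n13.3* for *col10a1a* (0.16). The *runx2* genes had other neighbours. The closest gene to both was *runx3* (0.21 for each), followed by *col11a1b* (0.18) and *vasnb* (0.17) for *runx2a* and by *bmper* and *ecrg4a* (both 0.19) for *runx2b*.

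Genes outside the 9 were also ranked by their CPM ratio in cells with at least 3 of the 9 genes over all other cells. The ratio was that of the library where it was lower. The 10 highest were *si:dkey-22i16.3*, *tmem119a*, *col5a2b*, *bmp8a*, *bgna*, *si:dkey-32e6.6*, *sgms2*, *si:ch211-106n13.3*, *phospho1* and *cd81b*. *tmem119a* was at 2512 and 2376 CPM in those cells, against 0.647 and 0.882 CPM in the others. *col5a2b*, a type V collagen chain, was at 923 and 1055 CPM against 0.630 and 0.317 CPM, and *phospho1* at 666 and 616 CPM against 1.60 and 1.58 CPM. These values describe the chosen cells and are no test.

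*bglap* had another pattern. It was found in 0 of 171 and 1 of 163 osteoblast-gated cells, which allows a share of up to 1.75% in the library labelled mutant. *bglap* was also in 0.574% and 0.888% of photoreceptors (4 and 7 UMIs) and in 0.543% and 0.846% of periderm cells (2 and 13 UMIs). Among all cells before the removal of likely doublets, 25 and 37 held *bglap* (32 and 48 UMIs), and in 10 and 15 of these the gel-forming mucin gene *muc5.1* was found as well. Of cells with at least 5 UMIs of *muc5.1* and *muc5.2* together (74 and 141), 13.5% (6.68 to 23.5) and 10.6% (6.08 to 16.9) held *bglap*, against 0.0569% and 0.0597% of other cells. The mucin genes were picked after the values were seen. In the cells kept, 3 of 45 and 10 of 99 such cells held *bglap*.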

How the data were processed

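Viable cells of 2 pools of heads were profiled with droplet 3′ single-cell RNA-seq, and the authors deposited raw UMI counts per gene and barcode, made with Cell Ranger (8.0.0 in the file headers) against GRCz11, per the submitters' processing notes. Barcodes with 500 to 20000 UMIs, 500 to 5000 genes, a log10 genes to log10 UMIs ratio above 0.8 and under 20% mitochondrial UMIs were kept (26454 and 36996). A score from simulated doublets (scikit-learn 1.9.0) was then used to leave out the highest 8% of each library. The score also removed nearly all neutrophil-gated cells (43 of 43 and 68 of 69) but 4 of 175 and 6 of 169 osteoblast-gated cells. Outside the filters, 5 and 6 barcodes held at least 4 of the genes, and 20.2% and 1.93% of *col10a1a* UMIs lay there. So did 20.3% and 2.95% of *ifitm5* UMIs and 15.0% and 10.1% of *sp7* UMIs, beside 36.1% and 29.1% of all UMIs.

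CPM are a gene's UMIs per 1000000 UMIs of the same cells. Intervals were exact Poisson for levels, conditional binomial for ratios and Clopper-Pearson for shares (SciPy 1.17.1). Those of ratios were tested on simulated Poisson counts, without spread between cells, and those of levels and shares were not tested. Fold counts used genes averaging 10 CPM or more. Named were all 9 genes and the 3 listed genes per list farthest from 0. From outside the 9 came the 3 highest phi coefficients for genes in at least 100 cells of each library, and 10 leading genes. Genes and lists were chosen with earlier results of these data known. Alternatives changed the cell filter, doublets, weighting, scaling, thinning depth, gate and number of other genes. Total deposited UMIs were 204627512 and 224911840. Of the 9 symbols, 8 matched the RefSeq gene table and all 9 the deposited gene list. The mutant allele was not examined in the reads. A gene that these rules name is not reported here.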

Additional observations from a re-analysis of the deposited data

How the results depend on the processing

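No paired analysis was possible because each genotype had 1 library, and no replicate could be left out. The median log2 ratio of the 9 genes (0.21) was 0.31 with no cell filter, 0.26 with no doublets left out, 0.076 with a further 10% left out, 0.26 with the mean of per-cell CPM and 0.15 after centring on the median of all genes. Among alternatives added after seeing the data, it was 0.13 with the study's cell numbers and 0.26 without the highest cell of each gene. With no cell filter 7 of the 9 genes were above 1.2. With no doublets left out, or with the study's cell numbers, 0 were below 0.8. The share of all genes past these limits was computed for the main setting only.

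The share of cells with at least 3 genes (0.481% and 0.314%) was 0.201% and 0.109% thinned to 500 UMIs, 0.243% and 0.153% at 1000 UMIs, 0.354% and 0.279% at 2000 UMIs, and 0.251% and 0.173% for at least 4 genes. The share of osteoblast-gated cells with *sp7* (31.0% and 26.4%) was 70.2% and 60.9% for 3 markers and 4 UMIs, 18.5% and 13.3% for 1 marker, 16.3% and 13.7% with mixed cells kept, and 11.1% and 6.75%, 14.8% and 15.5%, and 20.9% and 17.4% thinned to 500, 1000 and 2000 UMIs. The share of *sp7* cells with another gene was 40.8%, 43.9% and 43.7% labelled mutant at those depths, and 27.8%, 25.2% and 33.2% labelled wild-type. With at least 3 in place of 2 other genes, the log2 ratios of *runx2a* and *runx2b* went from -0.52 to 0.10 and from 0.35 to -0.014. Both intervals then spanned 0. The cause was not tested.

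Of 63 alternative values of single genes over all cells, 46 stayed within the counting interval and 17 did not, none of them with a change of sign. The 17 were 5 each of *col10a1a* (0.046 to 0.49) and *ifitm5* (0.34 to 0.67), 2 each of *runx2b* (0.37 and 0.48) and *panx3* (0.076 and 0.34), and 1 each of *sp7* (0.22), *runx2a* (0.26) and *entpd5a* (0.29, with no cell filter). Within their intervals, *spp1* (-0.13 to 0.07) and *entpd5a* took both signs. *bglap* (-1.02) was -0.30 with no doublets left out, -0.29 with the study's cell numbers and -0.60 with no cell filter. Depth limits *bglap* (17 and 42 UMIs) and *spp1* (307 and 367 UMIs) most.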

Other observations

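Genes of growth arrest and of the integrated stress response, chosen after their values were seen, were read in the cells with at least 3 of the 9 genes (117 labelled mutant and 107 labelled wild-type). *cdkn1a*, an inhibitor of cyclin-dependent kinases, had 122 UMIs in 28 cells labelled mutant and 11 UMIs in 10 cells labelled wild-type, a log2 CPM ratio of 3.28 (2.39 to 4.32), beside 1.87 over all cells. *ccng1*, a cyclin G gene, had 894 UMIs in 83 cells and 182 UMIs in 65 cells, a log2 ratio of 2.10 (1.87 to 2.34), beside 1.83 over all cells. The stress response factor genes *ddit3* (209 and 77 UMIs) and *atf4b* (437 and 228 UMIs) had log2 ratios of 1.25 (0.86 to 1.64) and 0.74 (0.51 to 0.98), beside 0.96 and 0.80 over all cells. *chac1*, which encodes a glutathione-degrading enzyme, was at 0.76 (0.42 to 1.104) in those cells and 1.07 over all cells. In the smaller set with at least 4 of the 9 genes, 3 point values were below those over all cells. They were *ccng1* at 1.44 (1.15 to 1.74), *atf4b* at 0.62 (0.31 to 0.95) and *chac1* at 0.30 (-0.16 to 0.76). Above theirs were *cdkn1a* at 4.44 (2.50 to 7.53), from 46 and 2 UMIs, and *ddit3* at 1.34 (0.77 to 1.94).

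*slc20a1a*, a sodium-phosphate cotransporter gene of the mineralization list that lay under 10 CPM over all cells (4.95 and 1.79 CPM, log2 ratio 1.47, 1.25 to 1.69), was also singled out by its values. Pooled over all cells with at least 4 of the 9 genes, *slc20a1a* was at 534 CPM labelled mutant and 18.9 CPM labelled wild-type. It was found in only 12 of the 61 and 5 of the 59 cells (19.7% and 8.47%). No interval was computed for these levels, and the part of single cells in them was not tested. *ihha*, a hedgehog ligand gene, was in 13 of 61 and 16 of 59 of these cells, against 0.107% and 0.0765% of other cells, with 91.6 and 102.5 CPM.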
